A study of Mus musculus with 12 samples.

Results

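Of 15250 transcript IDs with enough reads in every library, 31 had ribosome footprints that moved the same way with warming in all 3 replicate numbers while their RNA, averaged over the numbers, stayed near its starting level. Footprints were higher after warming in 19 of them, the rising members, and lower in 12, the falling members. IDs were eligible if the deposited tables listed a length for them and they held at least 50 counts in each of the 12 libraries, out of 63759 IDs in the tables. Counts were turned into CPM, the counts of an ID per 1000000 counts of its library, and differences were taken on log2(CPM + 0.5), warm minus 35 °C, within a replicate number. A rising member had a footprint difference of at least 0.4 in each number, a falling member one of -0.4 or less, and in both the mean of the 3 RNA differences lay between -0.15 and 0.15. These footprint and RNA values chose the members, so they are given below as a description and without a test of their own. The rising members made up 0.125% and the falling members 0.0787% of the eligible IDs. With the CPM scaled by TMM factors, which correct for differences in library composition, the split was 18 rising and 19 falling IDs. The libraries were made from bulk cells, so fewer cells holding a message and less of it per cell cannot be told apart.

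The cells were mouse embryonic fibroblasts, connective-tissue cells grown from embryos, of the C57BL/6 strain and wild-type genotype, grown to confluence and synchronised with Dex in every group. The groups without WTS stayed at 35 °C, and the groups with WTS, the label of the warm step, were moved to 38.5 °C for 2 h from 24 h after Dex. No time after Dex was labelled for the cells at 35 °C, so warming and the hour of harvest cannot be told apart. RNA-seq of total RNA and ribosome profiling, from lysates made with cycloheximide, an inhibitor that holds ribosomes in place, were each done on 3 libraries per treatment, numbered 1 to 3.

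Ribosome profiling digests the mRNA that ribosomes do not cover and sequences the protected fragments, or footprints. The footprints of a transcript depend on how much of its mRNA is present and on how densely ribosomes occupy it. Their ratio to RNA is called translational efficiency. Footprints that move without RNA are the pattern by which control of initiation or elongation is looked for, since both alter how many ribosomes a message holds. Heat is a known trigger of such control, and severe heat shock lowers the translation of most messages while messages of heat shock proteins go on being translated. The tables do not pair the IDs with genes, and 0 of the 63759 IDs occurred in the gene name tables at hand. What the members encode, markers of fibroblasts and the sequences of the members were therefore not analysed here, and only 4 IDs are named.

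Some IDs close to each other in the tables had nearly equal counts in every library, so their reads cannot be assumed to be separate. IDs within 30 rows whose counts, plus 1, were at most 25% apart in all 12 libraries, with a mean of at least 10 counts, were joined into read-sharing groups. The 19 rising members formed 13 such groups and the 12 falling members 5, and they are numbered in file order within each direction. Rising group 1 held 3 IDs, group 4 held 4 and group 13 held 2, and the other 10 groups were single IDs. Falling group 3 held 5 IDs, group 5 held 3, group 2 held 2, and groups 1 and 4 were single IDs. Rising groups 10 and 11 were adjacent rows just outside the limit for joining, so they may share reads as well. Where a group is described below, the values are those of its first ID.

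Library totals were 8686742 to 12212227 counts in RNA and 8449802 to 82560281 in footprints. In both assays number 1 lay far from the other numbers. Between libraries of 1 treatment, the chi-square per eligible ID, which is near 1 when only counting error separates libraries, was 91.5 to 161 in footprints and 45.3 to 64.4 in RNA for pairs that included number 1. Between numbers 2 and 3 it was 1.47 and 1.49 in footprints, and 1.77 and 6.19 in RNA. Footprint libraries 2 and 3 of each treatment thus differed by little more than counting error, and whether they share material is not known. The series was described as 3 independent experiments, without saying whether the numbers mark them, so p-values measure the spread between these libraries, which may be in part technical. The footprint difference of the median eligible ID was 0.09, 0.00 and -0.02 in numbers 1, 2 and 3, so number 1 leaned towards a rise on this scale. Number 1 minus the mean of numbers 2 and 3, over both treatments, was -0.43 in footprints and -0.07 in RNA for the median eligible ID. The TMM factors of the footprint libraries were 0.773 and 0.816 in number 1 and 1.12 to 1.14 in numbers 2 and 3. Low footprint CPM in number 1 was therefore not particular to the members.

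Among IDs with strong footprint changes, those with steady RNA were the minority. Footprints were higher by at least 0.4 in all 3 numbers in 213 IDs, of which 194 (91.1%) had a mean RNA difference above 0.15, 19 were the members, and 0 had a mean RNA difference below -0.15. Footprints were lower by as much in 104 IDs, of which 92 (88.5%) had RNA below -0.15, 12 were the members, and 0 had RNA above 0.15. The median of the mean footprint difference was 0.67 in the 194 and 0.50 in the 19, and -0.62 in the 92 and -0.55 in the 12. Of all eligible IDs, 63.9% had a mean RNA difference within the window. The members therefore sat at the edge of a cloud in which footprints and RNA moved together, and no ID paired a strong footprint change with RNA that moved past the window the other way.

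**Figure D1:**
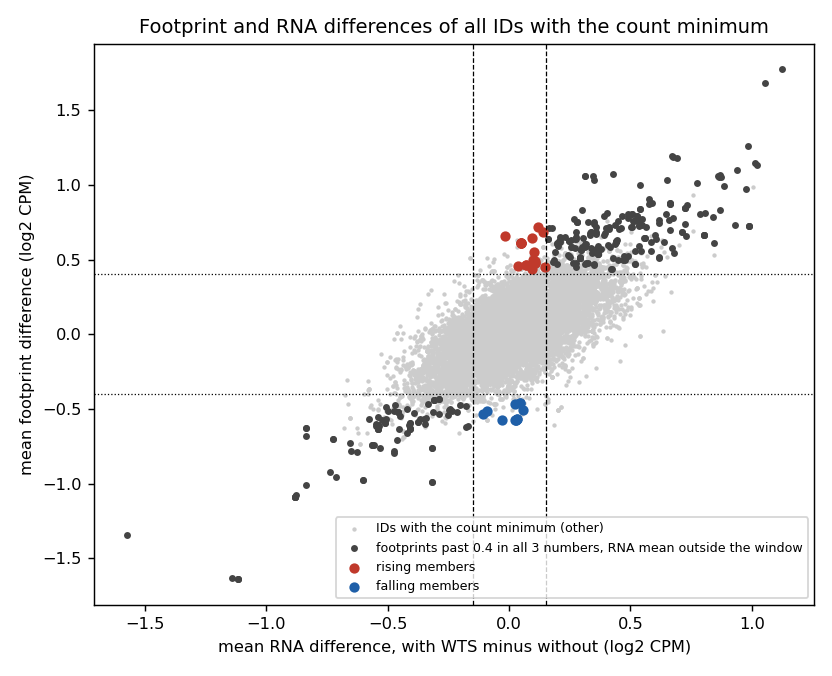
Mean difference in RNA (horizontal) and in footprints (vertical) between warm cells and cells at 35 °C for the 15250 eligible IDs, on the log2(CPM + 0.5) scale, with dashed lines at the RNA limits of 0.15 and dotted lines at the footprint limits of 0.4. The 19 rising and 12 falling members lie between the dashed lines, and the other IDs past the footprint limit in all 3 numbers lie to the right of them when rising and to the left when falling.

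The rising member with the strongest weakest difference was uc008rth.2, with a listed length of 302. Its footprints were 4.45, 6.27 and 5.92 CPM in numbers 1, 2 and 3 at 35 °C and 6.98, 10.5 and 9.51 CPM after warming. Every warm footprint library was above every library at 35 °C, though number 1 was the lowest of each treatment. Its offset in number 1 was -0.45 on the log2 CPM scale, near the -0.43 of the median eligible ID, and -0.0038 in the edgeR fit with TMM factors. Its RNA was 10.95, 10.4 and 11.2 CPM at 35 °C and 10.4, 12.2 and 12.4 CPM after warming, and the treatments overlapped. The footprint mean was 5.55 ± 0.970 CPM at 35 °C and 8.98 ± 1.8 CPM after warming, and the RNA mean 10.9 ± 0.429 and 11.7 ± 1.14 CPM (SD, n = 3 each). These footprint values rest on as few as 53 counts.

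The second rising ID was uc012gke.1, with a listed length of 955. Footprints were 6.41, 9.59 and 10.4 CPM at 35 °C and 9.62, 15.6 and 17.9 CPM after warming. Each number was higher after warming, but the warm library of number 1 lay below number 3 at 35 °C, so the treatments overlapped unless libraries were matched by number. RNA was 33.5, 22.5 and 23.3 CPM at 35 °C and 29.1, 24.1 and 24.2 CPM after warming. In RNA number 1 was the highest of each treatment and in footprints the lowest, and the RNA of number 1 was lower after warming while that of numbers 2 and 3 was higher. The means were 8.81 ± 2.12 and 14.4 ± 4.27 CPM in footprints and 26.4 ± 6.11 and 25.8 ± 2.86 CPM in RNA (SD, n = 3 each).

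Among the falling members uc007knf.1, with a listed length of 602, came first. Its footprints went from 3.38, 9.70 and 8.03 CPM at 35 °C to 2.18, 5.81 and 5.50 CPM after warming, and its RNA from 5.98, 10.4 and 8.07 CPM to 5.76, 9.18 and 8.93 CPM. Number 1 was the lowest in both assays, and both assays overlapped between treatments. It had 50 to 115 counts in each RNA library, the thinnest RNA coverage among the members. Mean footprints were 7.04 ± 3.28 CPM at 35 °C and 4.50 ± 2.01 CPM after warming, against 8.15 ± 2.20 and 7.95 ± 1.91 CPM in RNA (SD, n = 3 each).

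The second falling ID was uc009knf.2 of falling group 3, with a listed length of 319. Footprints were 5.22, 9.82 and 9.04 CPM at 35 °C and 3.29, 6.24 and 6.29 CPM after warming. RNA was 70.6, 84.4 and 81.9 CPM at 35 °C and 83.2, 82.1 and 76.7 CPM after warming. In number 1 the RNA difference was 0.24 on the log2 scale and the footprint difference -0.59. Mean footprints were 8.02 ± 2.46 CPM at 35 °C and 5.27 ± 1.71 CPM after warming, and mean RNA 79.0 ± 7.35 and 80.7 ± 3.48 CPM (SD, n = 3 each), and in both assays the treatments overlapped. This ID had abundant RNA, 696 to 937 counts per library, and few footprints, with log2 footprints per RNA of -3.56 over all libraries, where the median eligible ID had -0.29.

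**Figure D2:**
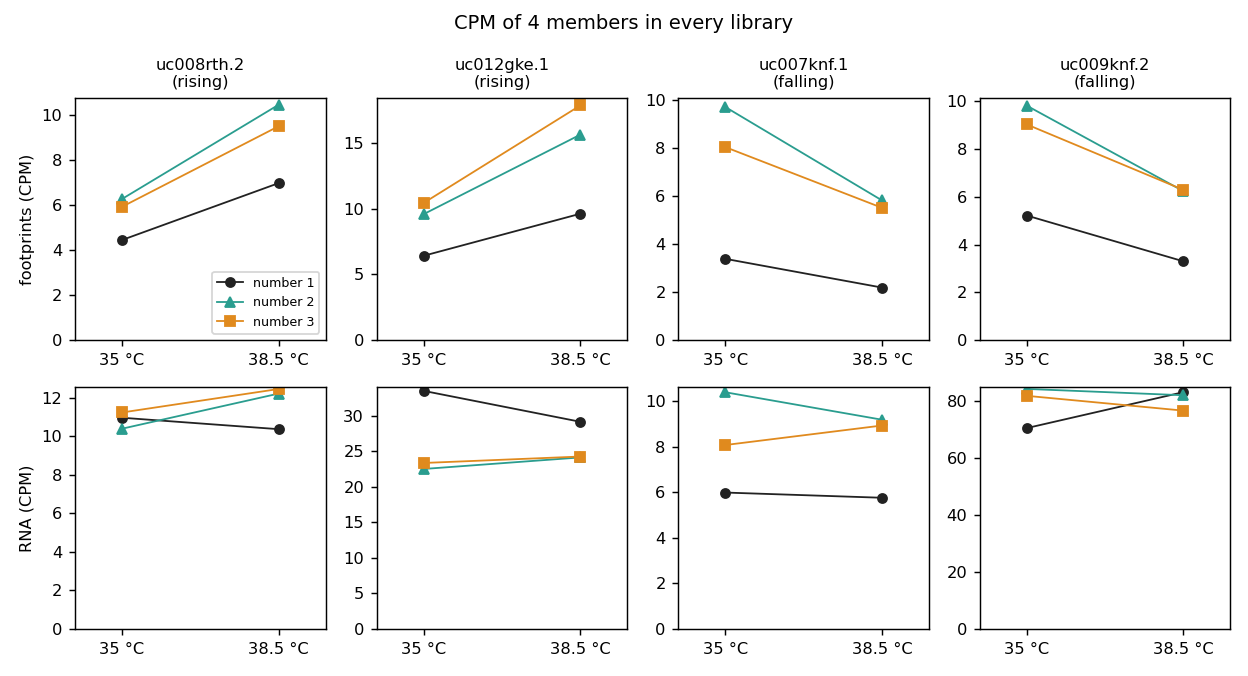
CPM of the 4 named members in each library, footprints above and RNA below, at 35 °C and 38.5 °C, with lines joining the libraries of 1 replicate number. Footprint lines slope the same way in all 3 numbers for each ID, and the RNA lines slope both ways among the 3 numbers of each ID.

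Only 3 groups were well covered, in that each of the 12 libraries held at least 100 counts. In rising group 1, of 3 IDs listed at 515 to 521, footprints were 42.9, 63.2 and 64.3 CPM at 35 °C and 62.5, 86.8 and 86.7 CPM after warming. Its RNA was 74.1, 94.4 and 121 CPM at 35 °C and 75.3, 123 and 114 CPM after warming, with RNA differences of 0.02, 0.38 and -0.08. The footprint differences were 0.54, 0.45 and 0.43, so in number 2 both assays differed by nearly as much. Rising group 9, 1 ID listed at 227, had footprints of 9.75, 18.1 and 22.3 CPM at 35 °C and 14.6, 26.2 and 29.7 CPM after warming. Its RNA was 15.6, 33.8 and 30.6 CPM at 35 °C and 17.7, 35.1 and 32.1 CPM after warming, and was higher in each number by 0.18, 0.06 and 0.07. Both assays of this ID were far lower in number 1.

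Falling group 1, 1 ID listed at 316, was the best covered of all members. Footprints were 96.1, 112 and 113 CPM at 35 °C and 66.3, 82.0 and 84.7 CPM after warming, and the treatments did not overlap. RNA was 200.3, 221 and 214 CPM at 35 °C and 210.2, 215 and 221 CPM after warming. Its RNA differences were 0.07, -0.04 and 0.04, within the window in each number, and its smallest library held 776 counts. It was the only falling ID whose RNA stayed within 0.15 in every number.

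Rising groups 4 and 5 were the only rising ones with that property, 5 IDs in all. Group 4, of 4 IDs listed at 214, had RNA differences of 0.04, 0.05 and 0.05, the steadiest of all members. Its footprints were 17.3, 6.63 and 7.53 CPM at 35 °C and 24.9, 12.8 and 10.2 CPM after warming, with number 1 at the top of each treatment, and its weakest library held 56 counts. Its footprint difference of 0.90 in number 2 was the largest single difference among the rising members, level with that of group 10 in number 1 to 2 decimals, and stood beside 0.51 and 0.42 in numbers 1 and 3. Group 5, 1 ID listed at 501, had footprints of 5.60, 8.64 and 8.63 CPM at 35 °C and 8.27, 11.7 and 11.7 CPM after warming, with RNA differences of 0.05, 0.04 and 0.02.

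At the other end, the RNA of some members was steady only on average. In rising group 13, of 2 IDs listed at 197, the RNA differences were 0.14, -0.51 and 0.58. RNA went from 17.8 to 12.3 CPM in number 2 and from 9.82 to 14.99 CPM in number 3, so in number 3 the RNA difference of 0.58 was above the footprint difference of 0.45. Rising group 6 had RNA differences of 0.29, -0.29 and 0.31, and falling group 2 had -0.02, -0.36 and 0.11. RNA differences within 0.15 in each of the 3 numbers were found in 5 of 19 rising and 1 of 12 falling IDs, which is 26.3% and 8.33%, beside 14.2% of all eligible IDs. RNA differences of both signs were found in 10 rising and 12 falling IDs (52.6% and 100%, against 60.6% of eligible IDs).

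Rising groups 10 and 11, listed at 1088 and 1304, showed the largest mean footprint differences, 0.72 and 0.69. Footprints of group 10 went from 4.83, 7.34 and 8.13 to 9.42, 12.7 and 11.7 CPM, and those of group 11 from 6.71, 9.11 and 10.4 to 12.7, 15.3 and 14.6 CPM, without overlap. Their RNA differences were all above 0, at 0.07, 0.19 and 0.09 in group 10 and 0.13, 0.26 and 0.03 in group 11. Among the remaining rising groups, 2, 7 and 12, the weakest footprint difference was 0.41 to 0.44 and the mean RNA difference 0.09 to 0.15. Falling group 5, of 3 IDs listed at 695 to 814, had footprint differences of -0.53, -0.41 and -0.43 with RNA differences of -0.03, 0.20 and -0.03.

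**Figure D3:**
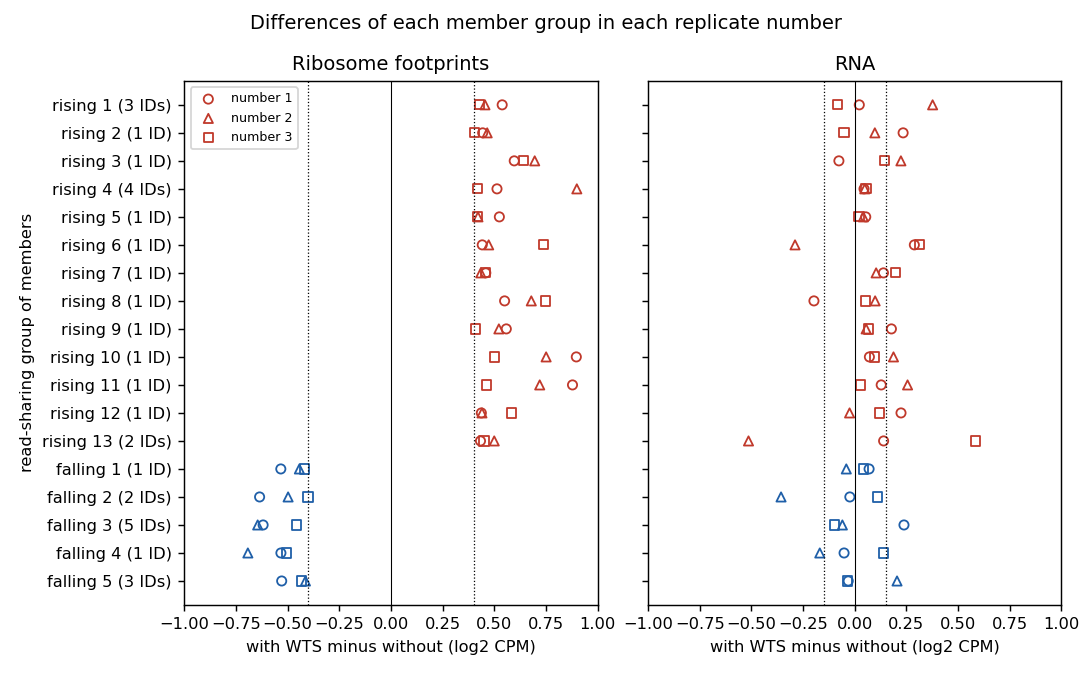
Difference between warm cells and cells at 35 °C in each replicate number for the 18 read-sharing groups of members, footprints on the left with dotted lines at the limits of 0.4 and RNA on the right with dotted lines at 0.15, which applied to the mean only. RNA points of rising groups 4 and 5 and of falling group 1 lie within the dotted lines in all 3 numbers, while those of rising group 13 spread from -0.51 to 0.58.

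The mean RNA difference leaned the same way as the footprints in the rising set, in 18 of 19 IDs and 12 of 13 groups, and not in the falling set, in 3 of 12 IDs and 2 of 5 groups. Its median was 0.10 in the rising IDs and 0.03 in the falling IDs, against 0.01 over all eligible IDs. The footprint difference exceeded the RNA difference in the members' direction in all 3 numbers in 17 of 19 rising and 12 of 12 falling IDs. The exceptions were the 2 IDs of rising group 13. The rule's limits on footprints and on mean RNA largely set these counts, so they are a description only.

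Members near the limits show how the choice fell. The rising ID just inside the footprint limit had a weakest difference of 0.405 and the one just outside 0.399, and for falling IDs these were -0.402 and -0.388. Another 17 rising and 11 falling IDs had their weakest difference between 0.35 and 0.4 in size. For RNA the largest mean inside was 0.15 and the nearest outside 0.16 in the rising set, and -0.11 and -0.17 in the falling set.

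Members were thinly sequenced. The smallest of the 12 counts was below 100 in 15 of 19 rising and 11 of 12 falling IDs, or 78.9% and 91.7%, against 36.0% of eligible IDs. In 16 rising IDs that smallest count was in footprint library 2 at 35 °C, and in 11 falling IDs it was in footprint library 2 of the warm cells, libraries with totals of 8449802 and 9459723. In each direction that is the treatment of number 2 in which the footprints were low by the rule, and the part of counting error in the choice was not tested. Footprint library 2 at 35 °C also had the smallest total of the 12 libraries. How often the smallest count of all eligible IDs lay in these libraries was not counted. The counting error of the mean footprint difference, from Poisson counts alone, was 0.04 to 0.12 in rising and 0.03 to 0.13 in falling IDs. Every member's mean footprint difference was above 2 such errors. The rule and the count minimum fixed that in advance. The largest such error among all eligible IDs was 0.15, and members had means of at least 0.4 in size. In number 2 alone the footprint difference was above 2 of its own counting errors in 16 of 19 rising and 9 of 12 falling IDs. The rule also chose on that difference, so this count is a description only. For RNA, 2 counting errors of the mean exceeded the limit of 0.15 in 12 of 19 rising and 4 of 12 falling IDs. That is 63.2% and 33.3%, beside 49.9% of eligible IDs, so this was not particular to the members. In those IDs an RNA change as large as the limit was not detectable at this depth. Reads amplified by PCR without molecular identifiers are not independent molecules, so these errors cover counting only.

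The number of IDs found after the treatments were swapped in 1 replicate number was far lower. Swapping both assays in number 1 left 0 rising and 1 falling ID, and swapping number 2 or number 3 left 0 and 0. Swapping the footprints alone gave the same counts. Footprint libraries 2 and 3 of each treatment differed by little more than counting error. A swap of number 2 or 3 therefore set nearly equal footprint differences against each other, so few IDs could remain. The swap of number 1 was the least bound by this. With a footprint limit of 0.3 in place of 0.4, chosen after the data were seen, 66 rising and 50 falling IDs were found as labelled, against 4 and 11 with number 1 swapped, 2 and 0 with number 2, and 1 and 0 with number 3. At 0.2 there were 267 and 165 as labelled, against 28 and 91 with number 1 swapped, 11 and 10 with number 2, and 20 and 7 with number 3. The swap of number 1 thus left more falling IDs than the other swaps did, 91 at the lowest limit beside 165 as labelled. Number 1 is also the one in which the median eligible ID had a footprint difference of 0.09, and the part of that offset in the counts was not tested.

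**Figure D4:**
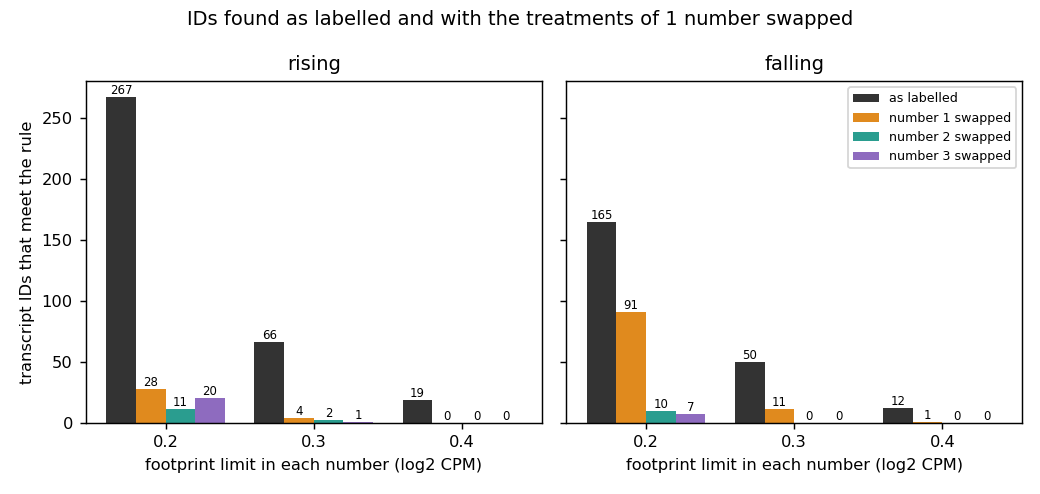
Number of IDs that met the rule at footprint limits of 0.2, 0.3 and 0.4 in each number, as labelled and with the treatments of both assays swapped in 1 replicate number, rising on the left and falling on the right. As labelled 19 and 12 IDs were found at 0.4, and swapping left 0 rising IDs and 1 falling ID, the latter for number 1.

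To give values that the choice had not used, IDs were chosen by the same limits in 2 replicate numbers and read in the third. Footprint libraries 2 and 3 differed by little more than counting error. A reading in number 2 or 3 therefore cannot be assumed independent of the choice, and number 1 gave the reading least tied to it. Of 32 IDs chosen as rising in numbers 2 and 3, 31 were higher in the footprints of number 1, with a median difference of 0.44, and 22 (68.8%) passed 0.4 there, against 14.4% of all eligible IDs in that number. Of 56 chosen without number 2, 53 were higher in it, with a median of 0.36, and 21 (37.5%) passed 0.4, against 6.01%. Of 63 chosen without number 3, 52 were higher in it, with a median of 0.27, and 24 (38.1%) passed 0.4, against 4.99%. Footprints in the number left aside were thus mostly higher as well, with medians below 0.4 in numbers 2 and 3.

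For falling IDs, the footprint median in the number left aside was -0.33 in number 1 (50 IDs), -0.41 in number 2 (26 IDs) and -0.28 in number 3 (37 IDs). Footprints were lower in 41, 23 and 36 of them, and 14 (28%), 16 (61.5%) and 12 (32.4%) passed -0.4, against 4.83%, 4.90% and 5.33% of all eligible IDs.

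In IDs chosen as rising, the RNA median was 0.13, 0.19 and 0.21 in numbers 1, 2 and 3, against 0.06, 0.09 and 0.07 over the 2 numbers that chose them and 0.04, -0.01 and 0.01 over all eligible IDs. RNA was higher in 29 of 32, 48 of 56 and 52 of 63. In IDs chosen as falling, the RNA median was -0.03, -0.15 and -0.10, against -0.08, -0.03 and -0.04 in the numbers that chose them, and RNA was lower in 29 of 50, 20 of 26 and 32 of 37. The footprint difference still exceeded that of RNA in the chosen direction in 25 of 32, 39 of 56 and 33 of 63 rising IDs and in 42 of 50, 17 of 26 and 26 of 37 falling IDs. Over all eligible IDs these shares were 57.7%, 51.8% and 45.0% for a rise and 42.3%, 48.2% and 55.0% for a fall. The median of footprint minus RNA in the number left aside was 0.29, 0.13 and 0.01 in the rising choices and -0.17, -0.22 and -0.16 in the falling choices. IDs that share reads are counted separately in these numbers, and the choices formed 24, 42 and 46 rising and 29, 16 and 24 falling read-sharing groups.

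**Figure D5:**
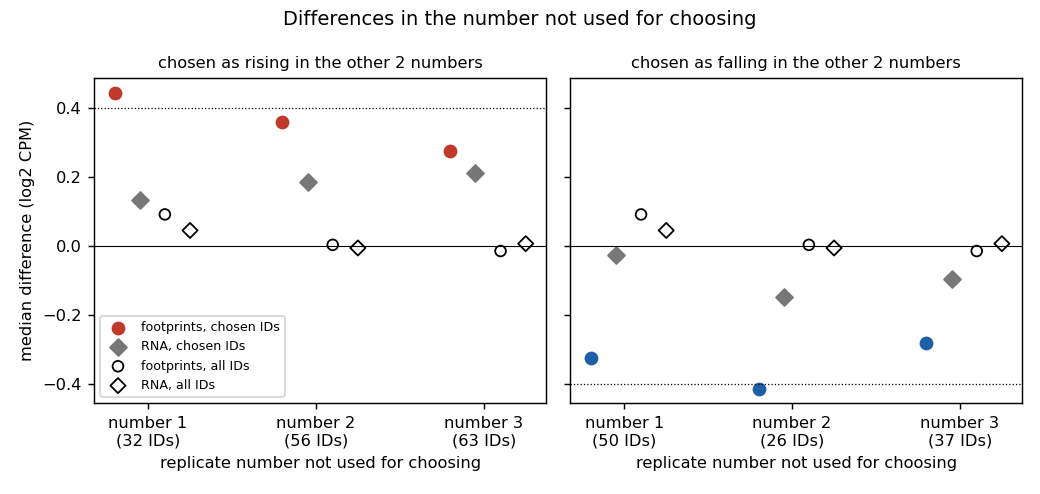
Median difference between warm cells and cells at 35 °C in the replicate number not used for choosing, for IDs chosen by the same limits in the other 2 numbers (filled) and for all 15250 eligible IDs (open), footprints as circles and RNA as diamonds, with a dotted line at the footprint limit. Filled circles lie between 0.27 and 0.44 for rising and between -0.41 and -0.28 for falling choices, and the filled RNA diamonds lie on the same side of 0, nearest to it for falling choices in number 1.

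The fits across all IDs used the same contrasts as the rule, and the block compares treatments within the same numbers as the rule did, so the members' calls are given beside the background as a description and support nothing. With edgeR's quasi-likelihood test and no replicate block, 0 of the 31 members passed an adjusted p of 0.05 in footprints, with 13 rising and 9 falling IDs at an unadjusted p under 0.05, as had 1039 of the 15250 eligible IDs. DESeq2 without a block also called 0, with 12 and 9 at an unadjusted p under 0.05, beside 663 eligible IDs. Of all 26920 IDs tested, edgeR called 0.0149% higher and 0.0149% lower, and DESeq2 0.186% and 0.123%. Once the fit included a block for the replicate number, edgeR called 19 of 19 rising IDs higher and 12 of 12 falling IDs lower, with 3.49% of all IDs higher and 3% lower. DESeq2 with the block called 8 of the 19, in 5 of 13 groups, and 1 of the 12, the well covered ID of falling group 1, with 1.01% of all IDs higher and 0.94% lower. In the edgeR fit without the block, the log2 fold changes were 0.67 ± 0.13 for uc008rth.2, 0.68 ± 0.15 for uc012gke.1, -0.67 ± 0.35 for uc007knf.1 and -0.63 ± 0.20 for uc009knf.2 (SE). With the block they were 0.66, 0.66, -0.66 and -0.64.

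In RNA, 0 of the 31 were called by edgeR or DESeq2, with or without the block, and 0 had an unadjusted p under 0.05 in any of these 4 fits. Of the 15250 eligible IDs, 596 had such a p in edgeR without the block and 2936 with it, and 378 and 1301 in DESeq2. Members were chosen for a mean RNA difference within 0.15, so their lack of low p-values follows largely from the rule. With the block edgeR called 2.29% of all 27223 IDs higher and 2.35% lower, and DESeq2 0.364% and 0.397%. Without it, edgeR called 0% in either direction and DESeq2 0.0955% higher and 0.0698% lower. With the block the RNA fold change was 0.09 ± 0.15 for uc008rth.2, -0.04 ± 0.11 for uc012gke.1, -0.04 ± 0.17 for uc007knf.1 and 0.01 ± 0.09 for uc009knf.2 on the log2 scale (SE).

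The change in translational efficiency, that is, whether footprints responded differently from RNA in 1 model of all 12 libraries, was not called for any member. Of all 26176 IDs tested by edgeR, 0% were called without the block, with the block, and with a block within each assay, a fit added after the data were seen. Among the members, 5 rising and 9 falling IDs had an unadjusted p under 0.05 in edgeR without the block, 13 and 12 with it, and 16 and 12 with the block within each assay. Of the 15250 eligible IDs, 109, 279 and 715 did in these fits. DESeq2 also called 0, with 4 and 9 at an unadjusted p under 0.05 without the block, beside 72 eligible IDs. With the block within each assay the estimates were 0.56 ± 0.19 for uc008rth.2, 0.69 ± 0.16 for uc012gke.1, -0.62 ± 0.22 for uc007knf.1 and -0.66 ± 0.16 for uc009knf.2 (log2, SE). Over the members, the interaction estimates in that fit ran from 0.31 to 0.69 in rising and from -0.67 to -0.48 in falling IDs.

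The level of footprints relative to RNA, averaged over both treatments, was low in falling members. Its median was -1.91 on the log2 scale in the 12 falling IDs, with a range of -3.57 to -0.56, and -0.56 in the 19 rising IDs, with a range of -2.60 to 1.51, against -0.29 over all eligible IDs. All 12 falling IDs and 12 of 19 rising IDs, or 5 of 5 and 10 of 13 groups, were below that median. The 5 IDs of falling group 3 share reads, and with 1 ID per group the median was -1.23 in falling and -0.65 in rising groups, against -0.27 over all eligible groups. For the falling IDs chosen with TMM-scaled CPM it was -0.94, and for those chosen without number 1, 2 or 3 it was -0.93, -1.13 and -0.84. The lowest values were those of falling group 3 at -3.57 and rising groups 10 and 11 at -2.60 and -2.47, and the highest was 1.51 in rising group 13. Low footprint counts moved with it: the smallest footprint count had a median of 59 in falling and 77 in rising IDs, against 164 over all eligible IDs, and its part in the result was not tested.

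The listed length, whose unit was not stated, had a median of 274 in rising and 336 in falling IDs, against 478 over all eligible IDs. With 1 ID per read-sharing group, the medians were 302 and 439, against 444, so the shorter medians of the IDs rest in part on IDs that share reads. Rising members ran from 197 to 1304 and falling members from 313 to 814.

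Number 1 differed from numbers 2 and 3 in some members and not in others. With treatment as a covariate, edgeR called footprints of number 1 higher in 5 of 19 rising and 3 of 12 falling IDs and lower in 2 and 6, with 25.8% of all IDs called higher and 26.3% lower, and 5127 and 3554 of the 15250 eligible IDs. In RNA 5 rising and 2 falling IDs were called higher and 7 and 1 lower, with 21.7% and 22.5% of all IDs, and 3707 and 4024 of the eligible IDs. The 5 rising IDs called higher formed 2 read-sharing groups in footprints and 2 in RNA, and the 7 called lower in RNA formed 4. The 3 falling IDs called higher in footprints formed 2 groups. Of the 6 falling IDs with lower footprints in number 1, 5 belong to falling group 3, so the count rests on 2 groups. In uc009knf.2 of that group the estimate was -0.40 (edgeR adjusted p = 0.0179), and it was no longer called without the warm library of number 1 (edgeR adjusted p = 0.154) or of number 3 (edgeR adjusted p = 0.0604). The estimate for footprints was largest in rising group 4, at 1.69, where RNA gave 1.47 in the same direction, and most negative in rising group 2, at -1.18 with -0.93 in RNA. In uc012gke.1 the estimates had opposite signs, -0.26 ± 0.11 in footprints (SE; edgeR adjusted p = 0.0647) and 0.48 ± 0.11 in RNA (edgeR adjusted p = 0.000451). Only the RNA estimate was called, and the difference between the assays was not tested. The footprint estimate passed the threshold without the 35 °C library of number 1 (edgeR adjusted p = 0.00561), and the RNA estimate no longer did without that RNA library (edgeR adjusted p = 0.169).

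Footprint CPM separated the treatments completely in 5 of 19 rising IDs and 3 of 12 falling IDs, with 5.75% and 3.07% of all eligible IDs in the same direction. In the others the treatments overlapped although each number moved the same way. In RNA the treatments overlapped in all 31 members, while 6.85% of eligible IDs were higher without overlap after warming and 3.95% lower. Both contrasts with the eligible IDs follow largely from the rule, which chose on these footprint and RNA values.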

How the data were processed

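Each library came as a table that the authors deposited, holding raw counts for every transcript ID and a listed length, identical in the 12 tables, whose extent and unit are not stated. Per the submitters' processing notes, CASAVA 1.8, STAR 2.7.0 and the build mm10 were used. Not given in the sources used here were the read counter, the annotation release and how reads shared between isoforms were treated. The 17340 IDs without a listed length held 0 counts.

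CPM, log2 differences, read-sharing groups, swaps and choices on 2 numbers were computed with Python 3.11.15. Counts were tested with edgeR 4.0.16 (TMM, filterByExpr, robust quasi-likelihood fit, Benjamini-Hochberg adjustment over all IDs tested) in R 4.3.3, with DESeq2 1.42.0 as an alternative. On simulated counts that kept the differences between the numbers, the edgeR footprint fit found most planted changes with the replicate block and missed them without it. The fit of translational efficiency missed them without the block, found few with it and most of the larger ones with a block within each assay, so an absence of calls without a block says little. The simulation gave every ID the same dispersion and planted changes of set sizes, not matched to those of the members. How often changes like those of the members would be found was not tested. Other alternatives were pseudocounts, count minimums, TMM-scaled CPM, total counts, left-out libraries and a replicate block. Deviations of same-numbered libraries from their treatment means correlated at 0.904, 0.589 and 0.697 in RNA and 0.877, 0.737 and 0.748 in footprints. Numbers 2 and 3 correlated as well when crossed, at 0.676 to 0.768 in RNA and 0.752 and 0.753 in footprints. These values set number 1 apart but do not show that number 2 pairs with 2 or 3 with 3. Differences were taken within a number because the rule does so, and fits are given with and without a replicate block.

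The members and all lists were chosen with earlier results of these data known. Members were ranked by the smallest in size of their 3 footprint differences, and the named IDs are the highest ranked ID of each of the first 2 groups in each direction. Lists of cell type markers and pathway genes could not be used without gene names. Counting errors are Poisson errors of the log2 difference.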

Additional observations from a re-analysis of the deposited data

How the results depend on the processing

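The number of members depended on most choices, and the direction of the held-out medians on none that was run. With TMM-scaled CPM there were 18 rising IDs (13 shared with the members) and 19 falling (10 shared). A pseudocount of 2 left 9 and 3, a minimum of 20 counts gave 34 and 32, and one of 100 counts left 4 and 1. With 1 ID per read-sharing group there were 13 and 5, and with RNA within 0.15 in each number 5 and 1. Choosing without replicate 1, 2 or 3 gave 32 to 63 rising and 26 to 50 falling IDs. Summing numbers 2 and 3 before the rule, chosen after seeing the data, gave 34 and 24, which held 18 of the 19 and 12 of the 12. Averaged over the 3 numbers left aside, the footprint median of falling choices was -0.34, and -0.22 with a pseudocount of 2 and -0.20 with a minimum of 100 counts. That minimum lowered the share past 0.4 from 48.1% to 25.8% in rising and from 40.7% to 16.7% in falling choices. The cause of these shifts was not tested.

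In footprints edgeR called 8 IDs without a replicate block and 1748 with it, 0 with total counts and 0 to 8 without single libraries. DESeq2 called 83, and 524 with the block. In RNA edgeR called 0, and 1265 with the block, and DESeq2 45, and 207 with it. Leaving out each replicate under the block, added after seeing the data as DESeq2 with the block was, gave 2830, 1660 and 1727 calls in footprints and 379, 600 and 1202 in RNA without replicates 1, 2 and 3. For translational efficiency the block gave 0 calls, and 5 without replicate 1, against 0 without replicate 2 or 3. RNA of number 1 against the others gave 12021 calls, and 7385 to 13032 without single libraries. Of 272 alternative values for the 4 named IDs, 250 kept their side of the threshold, 17 came to pass it and 5 no longer did, and the sign changed in some that passed no test, in RNA for uc012gke.1 (2 values), uc007knf.1 (3) and uc009knf.2 (4) and in number 1 against the others for uc008rth.2 and uc009knf.2. Footprint libraries of number 2 were the shallowest of each treatment, and members held as few as 53 counts there.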
